A study of Homo sapiens with 4 samples.

Results

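The 10 genes described here belong to the TRAIL and death receptor pathway and were measured in A2780 cells treated with wogonin or with DMSO. They were chosen by name from the 57773 genes of the deposited tables: the receptors TNFRSF10A, TNFRSF10B, TNFRSF10C, TNFRSF10D, FAS and TNFRSF1A, the adaptor FADD, the inhibitor CFLAR and the initiator caspases CASP8 and CASP10. All 10 were found, each as 1 row, in all 4 libraries. A2780 is an established human ovarian cancer cell line, labelled WT and ovarian adenocarcinoma in every sample, with no word in the labels on whether each library had its own culture. The p-values below therefore speak only of the spread between these libraries, which may be technical. The 2 control libraries (DMSO 1 and DMSO 2) received the solvent DMSO; their labels repeat the wogonin protocol and give no time of their own. The 2 treated libraries (wogonin 3 and wogonin 4) received wogonin, a plant flavone, at 10 ug/mL for 48 h. The study's stated question is whether wogonin slows ovarian cancer growth through DNA demethylation, and these libraries hold transcript levels only.

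Death receptors are cell-surface proteins of the TNF receptor family that carry a death domain inside the cell. When their ligand binds, as TRAIL binds the products of TNFRSF10A and TNFRSF10B or FAS ligand binds FAS, the adaptor FADD joins the receptor and draws in caspase 8 and caspase 10, which activate each other and start apoptosis. CFLAR, also called FLIP, resembles caspase 8 without its catalytic activity and can block that step. The products of TNFRSF10C and TNFRSF10D bind TRAIL without passing on a full death signal and are called decoy receptors, while TNFRSF1A, the main TNF receptor, signals first through another complex that can favour survival.

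Total exon reads per library ran from 11005921 to 11839562. Introns held 7.96% of reads in wogonin 3, counted over genes that have exons, and between 5.26% and 5.61% in the other libraries, and mitochondrial genes took 3.03% of exon reads in wogonin 4 and between 1.45% and 1.67% in the others. Markers of ovarian carcinoma epithelium were close to absent: of 8 genes, MUC16 was at 0 in all libraries, and PAX8, WT1, KRT7, KRT8, KRT18, EPCAM and CDH1 had at most 9 reads in any library. The summed level of these 8 genes was 1.46 to 1.85 TPM (the deposited level per exon length) in DMSO and 0.446 to 1.14 TPM in wogonin. All 3 endothelial markers were at 0, as were the leukocyte genes PTPRC and CD3E. The 5 leukocyte markers summed to 34.0 to 40.9 TPM in DMSO and 26.3 to 39.3 TPM in wogonin. Nearly all of that was CD68, at 33.2 and 40.9 TPM in DMSO 1 and 2 and 38.4 and 26.3 TPM in wogonin 3 and 4. CD14 and CD79A had at most 3 reads in any library. The 5 fibroblast markers summed to 456 to 483 TPM in DMSO and 337 to 360 TPM in wogonin, nearly all from COL3A1, a fibrillar collagen with 8997, 8663, 6494 and 6477 reads in DMSO 1, DMSO 2, wogonin 3 and wogonin 4. The 8 epithelial markers were nearly absent although the label names an adenocarcinoma. No other profile of A2780 was set beside these libraries, and whether the cells are A2780 was not tested. The part of these marker levels in the results on the pathway was not tested.

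Within the TRAIL receptor family the decoy receptor TNFRSF10D changed the most and was 6.82-fold higher after wogonin, while the groups overlapped for the signalling receptor TNFRSF10B. Of the other members, FAS and FADD also rose, and CFLAR, CASP8, CASP10 and the decoy receptor TNFRSF10C fell. The calls for FADD, CASP8 and TNFRSF10C were lost under settings given with each gene below. Of the 10 members 9 passed the filter on low counts, and of these 3 were higher, 4 were lower and 2 did not pass at the threshold of 0.05 (edgeR, p-values adjusted by Benjamini-Hochberg over all 13449 genes tested). Changes were common in these libraries: 63.8% of all genes tested passed, 32.3% (4343 genes) as higher and 31.5% (4234) as lower. That even split came with the TMM scaling: with library totals alone 3657 genes were higher and 4974 lower, and with upper-quartile scaling 3663 and 4976. The median log2 change (wogonin over DMSO) was 0.07 over the 9 members and -0.0007 over all genes tested. Groups did not overlap for 7 of the 9 members, against 81.9% of all genes tested. TNFRSF10C and CASP10 passed the filter through their DMSO libraries, where they were higher, so the count over the members is given as a description only. With no filter both still passed the test (adjusted p = 0.015 for TNFRSF10C and 0.00033 for CASP10 by edgeR). That fit gave far smaller p-values without smaller SEs, so it is no firm check. For TNFRSF10D the edgeR adjusted p was 7.6e-107 at an SE of 0.124, against 2e-11 at 0.116 in the main fit.

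**Figure D1:**
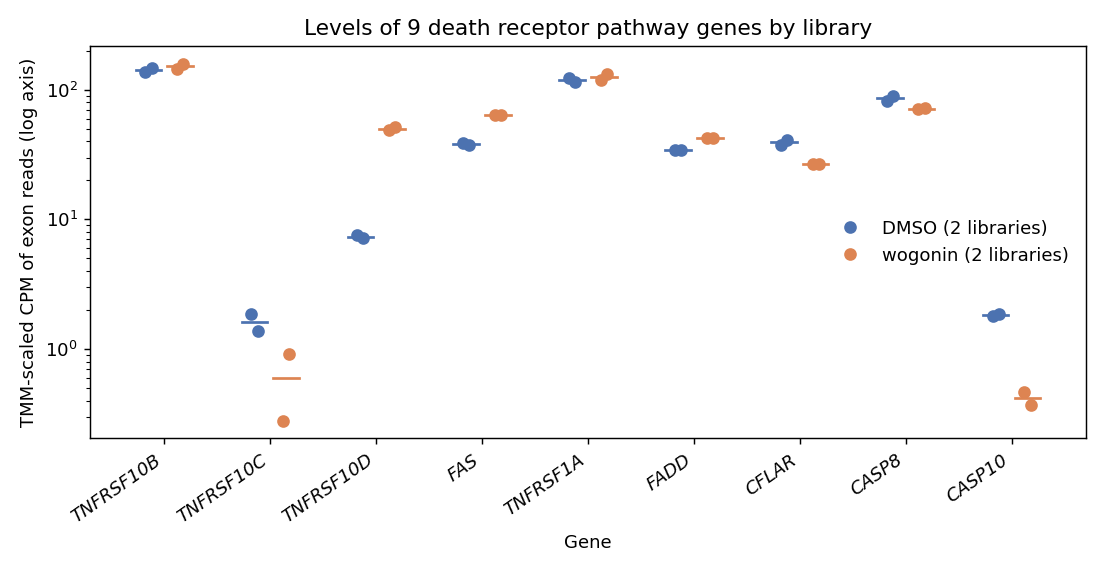
Levels of the 9 tested genes in each library, in TMM-scaled CPM of exon reads, on a log axis. Points are libraries and short lines are group means. TNFRSF10D moves from 7.36 to 50.3 CPM, and TNFRSF10A, with no reads in any library, is not drawn.

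TNFRSF10D (ENSG00000173530, chromosome 8, 22993101 to 23021543, minus strand, in the files' build GRCh37) encodes a TRAIL receptor with a truncated death domain. It had 89 and 88 exon reads in DMSO 1 and 2, against 525 and 559 in wogonin 3 and 4. Both treated libraries thus lay far above both controls, and the 2 libraries of each group were close together. TMM-scaled CPM is the read count per library size, with a scaling that assumes that most genes keep their level between libraries. That assumption was not tested, and 63.8% of all genes tested passed as changed. On this scale TNFRSF10D was at 7.36 ± 0.26 in DMSO and 50.3 ± 1.79 in wogonin (SD over n = 2 libraries). The log2 change was 2.77 ± 0.12 (SE, with adjusted p = 2.0e-11 in edgeR), and 133 of the genes tested, or 0.989%, rose by at least that much and passed. All exon reads of TNFRSF10D matched a single place. As these are bulk libraries, a higher level per cell and more cells with the transcript cannot be told apart, here and for the other genes.

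TNFRSF10C, whose product is held at the membrane by a lipid anchor and lacks the death domain, lies beside it (chromosome 8, 22941868 to 22974950) and went the other way at a much lower level. It had 22 and 17 exon reads in the DMSO libraries, 3 in wogonin 3 and 10 in wogonin 4. The groups did not overlap, but the 2 treated libraries differed from each other by more than the DMSO pair did. At 1.63 ± 0.339 and 0.601 ± 0.454 CPM (SD over n = 2 libraries), its log2 change was -1.41 ± 0.50 (SE, with adjusted p = 0.022 in edgeR). That call was lost with DESeq2 (adjusted p = 0.16). It was also lost without DMSO 1, DMSO 2 or wogonin 3 (edgeR adjusted p = 0.21, 0.076 and 0.25), and the log2 change was -0.80 without wogonin 3 and -2.49 without wogonin 4. With introns counted too, TNFRSF10C had 37, 44, 5 and 11 reads in DMSO 1, DMSO 2, wogonin 3 and wogonin 4. The log2 change was then -2.24 (adjusted p = 9.4e-04 by edgeR).

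TNFRSF10B, which encodes the signalling receptor DR5 (chromosome 8, 22877646 to 22926692), was the most abundant receptor of the family. It had 1628 and 1814 exon reads in DMSO and 1546 and 1722 in wogonin, so the groups overlapped. The level was 143 ± 6.99 CPM in DMSO and 152 ± 10.2 CPM with wogonin (SD over the n = 2 libraries of a group), with a log2 change of 0.08 ± 0.07 (SE, with adjusted p = 0.29 in edgeR). Scaled by library totals alone it was -0.01, so no direction can be given. Its last 67 bases overlap RHOBTB2 on the opposite strand. The other signalling TRAIL receptor, TNFRSF10A, which encodes DR4 (chromosome 8, 23047965 to 23082639), had 0 reads in exons and 0 in introns in all 4 libraries. With 3 counts as the limit that a count of 0 allows, its level was below 0.253 to 0.273 CPM, depending on the library. This limit was taken from library totals without TMM scaling, unlike the other CPM values.

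Decoy receptors took a larger share of the TRAIL receptor reads in both wogonin libraries than in either DMSO library. TNFRSF10C and TNFRSF10D together took 6.38% of the exon reads of the 4 TRAIL receptor genes in DMSO 1 (95% Wilson interval 5.33 to 7.63%) and 5.47% in DMSO 2 (4.54 to 6.58%). In wogonin 3 they took 25.5% (23.6 to 27.4%) and in wogonin 4 24.8% (23.1 to 26.6%), and these intervals cover counting error only. Per exon length the decoy share was 9.60% and 8.18% in DMSO, against 33.3% and 32.6% in wogonin. On that scale TNFRSF10B stood 12.5 and 14.1 times above TNFRSF10D in the DMSO libraries and 2.02 and 2.11 times above it in the wogonin libraries. With 2 libraries in each group the smallest p an exact permutation can give is 0.333, so the shares stand without a test.

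**Figure D2:**
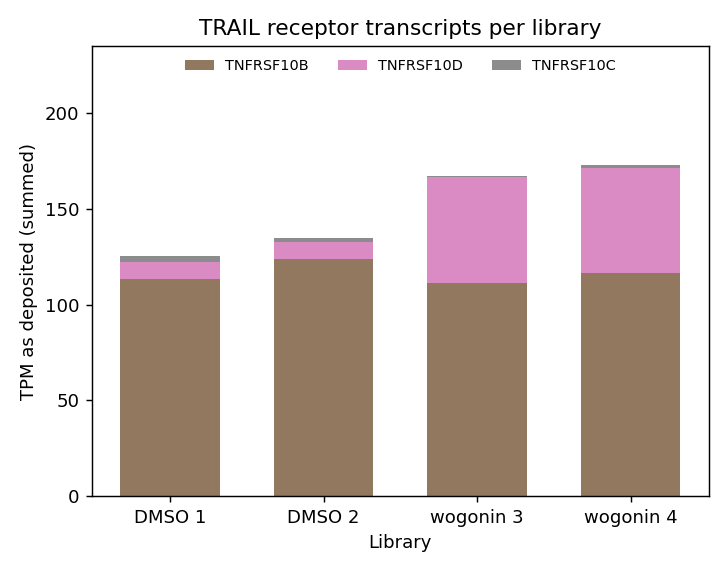
Deposited TPM of TNFRSF10B, TNFRSF10D and TNFRSF10C, stacked for each of the 4 libraries; TNFRSF10A is at 0 in all. The sum is 125 and 135 TPM in DMSO 1 and 2, and 167 and 173 TPM in wogonin 3 and 4, with the TNFRSF10D segment wider in both treated libraries.

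Among the other death receptors, FAS rose and TNFRSF1A did not pass. FAS (ENSG00000026103, chromosome 10, 90750414 to 90775542, plus strand) had 462 and 459 exon reads in DMSO and 684 and 694 in wogonin. The pairs were tight and did not overlap, at 38.3 ± 1.23 and 63.9 ± 0.10 CPM (SD over n = 2 libraries), a log2 change of 0.74 ± 0.08 (SE, with adjusted p = 9.5e-07 in edgeR). The first 734 bases of FAS overlap ACTA2, a smooth muscle actin gene on the opposite strand, which rose as well, with 2076, 2085, 3767 and 3336 exon reads in DMSO 1, DMSO 2, wogonin 3 and wogonin 4 (log2 change 0.93, adjusted p = 1.0e-08 by edgeR). The strand setting of the counts is not given in the sources used here, so reads of ACTA2 and FAS in the overlap cannot be told apart if strand was ignored. In reads that span exon junctions FAS had 162, 179, 263 and 260 reads in the same order, a log2 change of 0.77 ± 0.12 (SE, with adjusted p = 1.0e-05 in edgeR), close to the value over all exon reads. TNFRSF1A (chromosome 12, 6437923 to 6451280) had 1466, 1415, 1273 and 1443 exon reads, and at 119.9 ± 6.31 and 126 ± 10.1 CPM its groups overlapped (SD, n = 2 each, log2 change 0.07, adjusted p = 0.40 by edgeR). Its sign turned with the scaling, at -0.02 both with upper-quartile scaling and with library totals alone.

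FADD, the adaptor that links the receptors to the caspases (ENSG00000168040, chromosome 11, 70049269 to 70053496), was slightly higher in total exon reads. The reads numbered 402 and 419 in DMSO and 455 and 459 with wogonin, or 34.1 ± 0.058 and 42.4 ± 0.10 CPM (SD over n = 2 libraries), with a log2 change of 0.31 ± 0.09 (SE, with adjusted p = 0.0061 in edgeR). Only 39.0% to 42.5% of FADD exon reads matched a single place. In those unique reads, 171 and 176 in DMSO against 188 and 179 in wogonin, the log2 change was 0.24 and did not pass (adjusted p = 0.1 by edgeR). The call was lost with DESeq2 as well (adjusted p = 0.06). FADD reads are therefore uncertain, since they may be shared with other places of the genome.

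The inhibitor CFLAR and both initiator caspases lie side by side on chromosome 2, and all 3 fell. CFLAR (ENSG00000003402, 201980827 to 202041410, plus strand) had 443 and 502 exon reads in DMSO and 286 and 290 in wogonin. That is 39.3 ± 2.39 against 26.7 ± 0.031 CPM (SD over n = 2 libraries), a log2 change of -0.56 ± 0.10 (SE, with adjusted p = 1.1e-04 in edgeR). CASP8 (ENSG00000064012, 202098166 to 202152434, plus strand) fell less, from 966 and 1106 reads to 756 and 780. In CPM it went from 86.1 ± 5.86 with DMSO to 71.2 ± 0.957 with wogonin (SD over the n = 2 libraries of a group), a log2 change of -0.27 ± 0.08 (SE, with adjusted p = 0.005 in edgeR), and the call was lost without DMSO 2 (-0.21, adjusted p = 0.073 by edgeR). CASP10 (ENSG00000003400, 202047604 to 202094129), the closest relative of caspase 8, was low throughout. It had 21 and 23 exon reads in the DMSO libraries and 5 and 4 in the wogonin libraries, with a log2 change of -2.10 ± 0.47 (SE, with adjusted p = 9.4e-04 in edgeR).

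Per exon read, the ratio of CFLAR to CASP8 was 0.459 in DMSO 1, 0.454 in DMSO 2, 0.378 in wogonin 3 and 0.372 in wogonin 4. In reads across exon junctions the same ratio was 0.364 and 0.352 in DMSO and 0.112 and 0.123 in wogonin. The inhibitor was thus lower against the caspase in both treated libraries by either kind of read, and the gap between the groups was wider in junction reads.

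The 2 genes differed in which reads changed. Of CFLAR exon reads, 106 and 109 spanned a junction in DMSO and 28 and 36 in wogonin, which is 23.9% and 21.7% of its exon reads against 9.79% and 12.4%. Its other exon reads went from 337 and 393 to 258 and 254. The junction reads alone gave a log2 change of -1.59 ± 0.20 (SE, with adjusted p = 1.2e-06 in edgeR). In a fit of junction against other exon reads across 12062 genes, of which 3.85% passed, with each kind of read scaled to that of the other genes, the ratio for CFLAR fell by 1.15 on the log2 scale (± 0.22 SE, with adjusted p = 2.7e-04 in edgeR). This call was lost without wogonin 3 (-0.99, adjusted p = 0.08 by edgeR). CFLAR has 26 annotated transcripts and 22528 bases of merged exons, the most of the 10 genes, and its transcript forms were not resolved here.

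CASP8 showed the reverse in the same fit. Its junction reads numbered 291 and 310 with DMSO against 249 and 292 in wogonin, with a log2 change of 0.0043 ± 0.11 (SE, with adjusted p = 0.98 in edgeR), while its other exon reads went from 675 and 796 to 507 and 488. The ratio of junction to other exon reads rose by 0.50 on the log2 scale (± 0.12 SE, with adjusted p = 0.004 in edgeR), a call lost without DMSO 2 and without wogonin 4 (edgeR adjusted p = 0.083 and 0.27). Intron reads of CASP8 numbered 200 and 207 with DMSO against 110 and 95 in wogonin. Intron against exon reads were fitted across 12852 genes, of which 8.02% passed, with each kind of read scaled to that of the other genes. Relative to the other genes the ratio for CASP8 fell by 0.94 (± 0.27 SE, with adjusted p = 0.037 in edgeR), and by 0.86 without wogonin 3, the library with the high intron share. Without that scaling, where the median of all genes was 0.42, the value for CASP8 was -0.56 and the call was lost (adjusted p = 0.47 by edgeR). It was also lost without DMSO 1 or DMSO 2 (edgeR adjusted p = 0.48 and 0.35).

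For TNFRSF10D the same fits gave a junction ratio that did not pass (log2 change 0.02 ± 0.23, SE, adjusted p = 0.98 by edgeR) and an intron ratio that was lower relative to the other genes. Its intron reads were few, at 11 in DMSO 1, 5 in DMSO 2, 24 in wogonin 3 and 8 in wogonin 4, while its exon reads rose as given above. Relative to the other genes the intron to exon ratio fell by 2.04 on the log2 scale (± 0.58 SE, with adjusted p = 0.031 in edgeR), and by 2.83 without wogonin 3. Without the scaling to other genes the value was -1.66 and the call was lost (adjusted p = 0.2 by edgeR). It was also lost without DMSO 1, at -1.39 (adjusted p = 0.6 by edgeR). None of the other 6 tested members passed either of these fits. Both fits were chosen after seeing the data.

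**Figure D3:**
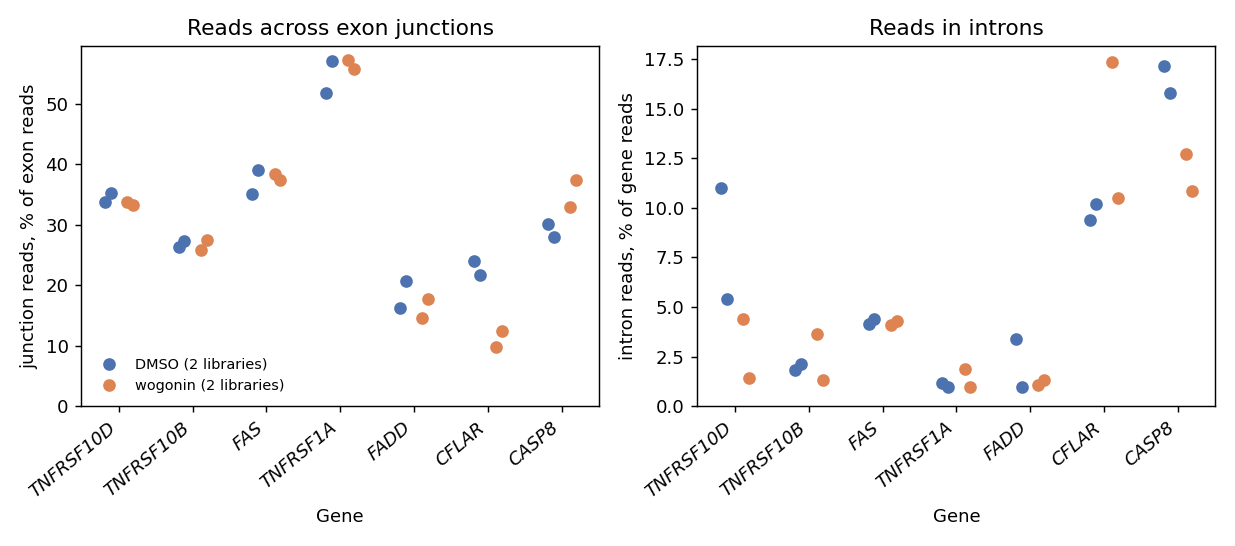
Share of exon reads that span an exon junction (left, percent) and share of gene reads that lie in introns (right, percent) for 7 genes, 1 point per library. CFLAR drops from 23.9% and 21.7% to 9.79% and 12.4% in the left panel, and CASP8 is lower after wogonin in the right panel; TNFRSF10C and CASP10 have too few reads to draw.

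**Figure D4:**
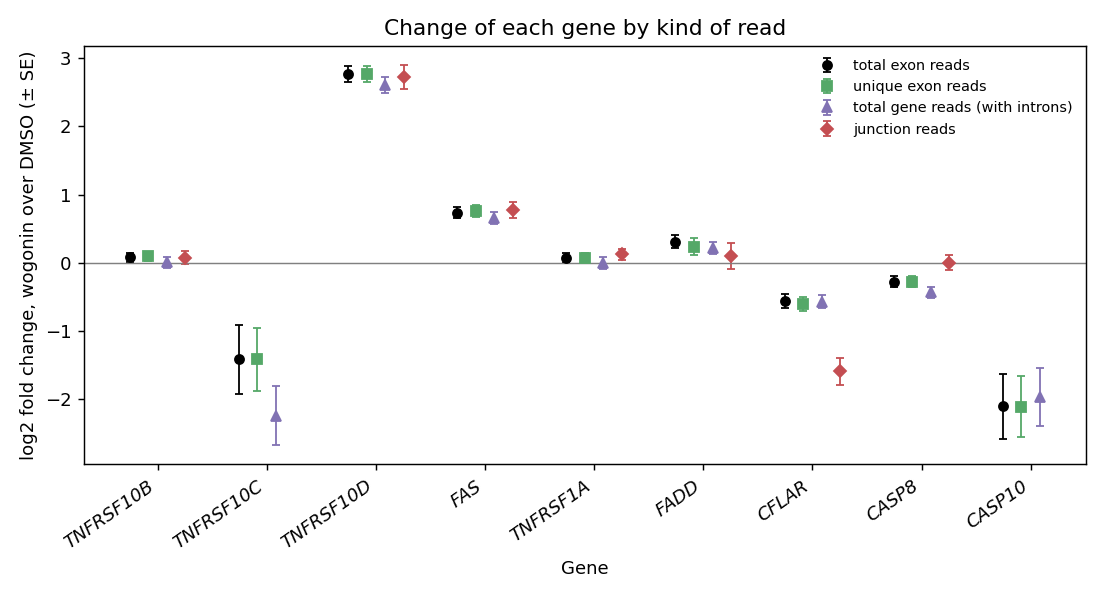
Log2 fold change with its standard error for each of the 9 tested genes, from 4 kinds of read. TNFRSF10D and FAS are higher in all 4 kinds, CFLAR is lower in junction reads (-1.59) than in exon reads (-0.56), and CASP8 sits at 0.0043 in junction reads; TNFRSF10C and CASP10 have too few junction reads for a fit.

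Levels can be set against each other per exon length. In DMSO the order by mean TPM was TNFRSF1A (128), TNFRSF10B (119), FADD (79.3), CASP8 (54.1), FAS (46.0), TNFRSF10D (8.90), CFLAR (7.46), TNFRSF10C (2.65), CASP10 (1.03) and TNFRSF10A (listed at 0). In wogonin FAS (69.6) and TNFRSF10D (55.1) stood above CASP8 (40.6), and the other ranks were as in DMSO. No neighbours in either order overlapped in their 2 libraries, though TNFRSF1A and TNFRSF10B were near each other, at 124.5 to 132 and 113 to 124 TPM in DMSO. TPM divides by the merged exon length, which is 22528 bases for CFLAR and 6808 for CASP8, so the place of CFLAR depends on which of its exons are in use.

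Promoter sequences from RefSeq (build GRCh38.p14, 250 bases before to 50 after an annotated start) were found for 5 of the 10 genes, and no position was carried between builds. None was found for CASP10, TNFRSF10A, TNFRSF10B, TNFRSF10C or TNFRSF10D, so the members that changed most have no window here. The windows found are shown because the study asks about DNA demethylation, which acts on CpG sites. For FAS, which rose, and for the neighbours CFLAR and CASP8, which fell, the window farthest upstream is printed with each CG in capitals, though these libraries do not show which start was in use.
FAS promoter window (chr10:88990548-88990847, plus strand): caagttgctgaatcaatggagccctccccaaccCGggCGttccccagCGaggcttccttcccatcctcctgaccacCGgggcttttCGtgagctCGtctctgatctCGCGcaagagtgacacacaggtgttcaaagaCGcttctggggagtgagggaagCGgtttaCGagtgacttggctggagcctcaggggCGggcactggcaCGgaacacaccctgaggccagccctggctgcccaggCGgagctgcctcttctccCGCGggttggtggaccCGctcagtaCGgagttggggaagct
CFLAR promoter window (chr2:201118466-201118765, plus strand): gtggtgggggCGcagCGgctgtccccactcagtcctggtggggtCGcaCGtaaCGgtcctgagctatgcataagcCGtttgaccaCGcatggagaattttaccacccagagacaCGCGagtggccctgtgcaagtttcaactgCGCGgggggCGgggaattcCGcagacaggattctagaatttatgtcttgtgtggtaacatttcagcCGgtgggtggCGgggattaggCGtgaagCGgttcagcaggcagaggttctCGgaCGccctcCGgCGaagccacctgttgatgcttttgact
CASP8 promoter window (chr2:201233213-201233512, plus strand): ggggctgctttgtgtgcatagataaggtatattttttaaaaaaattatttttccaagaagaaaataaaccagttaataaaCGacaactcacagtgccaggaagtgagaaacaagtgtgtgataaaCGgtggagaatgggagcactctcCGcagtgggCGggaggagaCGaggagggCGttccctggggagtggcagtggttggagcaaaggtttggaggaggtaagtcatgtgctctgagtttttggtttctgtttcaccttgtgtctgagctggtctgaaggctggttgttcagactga
The printed FAS window holds 18 CG pairs, the CFLAR window 21 and the CASP8 window 6. Windows at other annotated starts hold 22 and 14 for FAS, 22, 0 and 1 for CFLAR, and 5 and 6 for CASP8, so the count for FAS and CFLAR depends on the start. Of 35116 promoter windows of that length, 44.5% hold at least 18, 39.5% at least 21 and 66.3% at least 6. Each of these 3 windows holds 1 GC box (GGGCGG on either strand, which itself contains a CG), and 45% of all windows hold at least 1. The FADD window holds 36 CG pairs and the TNFRSF1A window 4. Methylation at these sites was not measured.

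Genes around both clusters of members moved in both directions, as genes did in general. Of all genes tested 63.8% passed, 32.3% as higher and 31.5% as lower. Within 200 kb of the CFLAR, CASP10 and CASP8 cluster 5 other genes were tested: TRAK2 (log2 change -1.09) and ORC2 (-0.35) fell, FAM126B (0.44) and NDUFB3 (0.33) rose, and STRADB (0.20, adjusted p = 0.13 by edgeR) did not pass. Around the TRAIL receptor cluster RHOBTB2 rose (0.32), CHMP7 (-0.32) and ENTPD4 (-0.37) fell, and R3HCC1 and LOXL2 did not pass (edgeR adjusted p = 0.67 and 0.42). None of these 10 neighbours changed as much as TNFRSF10D, CASP10 or TNFRSF10C (-1.41), though CASP10 and TNFRSF10C rest on few reads. TNFRSF10C was at -0.80 without wogonin 3. TRAK2, however, fell more than CFLAR (-0.56) and CASP8 (-0.27), and ORC2, FAM126B and NDUFB3 moved more than CASP8. RHOBTB2, CHMP7 and ENTPD4 moved more than TNFRSF10B (0.08).

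The ligands of these receptors were at or near 0. TNFSF10, the gene of TRAIL, had 5 and 5 exon reads in DMSO and 2 and 1 in wogonin, and FASLG had none in any library. TNF had 0 and 0 reads in DMSO and 5 and 4 in wogonin, and LTA and TNFSF15 had at most 4, so none of the 5 ligands was tested. Of 7 other death and decoy receptors 2 were tested: TNFRSF21 (DR6) rose by a log2 change of 0.37 (adjusted p = 0.034 by edgeR) and TNFRSF25 (DR3) did not pass (-0.05, adjusted p = 0.89 by edgeR). The soluble decoys TNFRSF6B and TNFRSF11B had at most 2 reads.

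Other genes of the pathway went both ways. Of 44 that were tested out of 57 listed, 16 were higher, 10 were lower and 18 did not pass, which is 59.09% called against 63.8% of all genes, with a median log2 change of 0.08. With library totals alone and with upper-quartile scaling 11 were higher and 11 lower, so the excess of higher calls depends on the scaling. In the receptor-proximal complex that TNFRSF1A recruits, 5 of 14 rose, 2 fell and 7 did not pass. RBCK1 (log2 change 0.77) and RNF31 (0.58), both parts of the ligase that makes linear ubiquitin chains, and the kinase gene MAP3K7 (0.68) rose. The deubiquitinase CYLD (-1.12), which removes such chains, and the adaptor TRAF5 (-0.90) fell.

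Among 9 tested modifiers of the receptor-bound caspase complex 4 rose, 2 fell and 3 did not pass, where 63.8% of all genes tested passed. PEA15, a small protein with a death effector domain that can bind FADD and caspase 8, had the largest rise of this list. It had 1635 and 1831 exon reads in DMSO and 4020 and 3962 in wogonin, a log2 change of 1.36 ± 0.06 (SE, with adjusted p = 2.8e-11 in edgeR). FAIM, an inhibitor of FAS-induced apoptosis, fell by 1.45 on the log2 scale, and DEDD, which also carries a death effector domain, by 0.50. GALNT14, a glycosyltransferase that modifies TRAIL receptors, rose by a log2 change of 0.49, and CUL3, which supports caspase 8 ubiquitination, by 0.25.

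In the arm downstream of the caspases 3 of 10 rose, 3 fell and 4 did not pass, beside 63.8% of all genes that passed. BID, the caspase 8 substrate that carries the signal to mitochondria, rose from 24.1 ± 0.0774 to 42.7 ± 0.435 CPM (SD over n = 2 libraries), a log2 change of 0.82. CYCS, cytochrome c, rose by 0.76 and DFFA, the inhibitor of the apoptotic nuclease, by 0.56. The effector caspase gene CASP6 fell by 1.75 on the log2 scale and CASP9, the initiator caspase of the mitochondrial route, by 1.05. Of the necroptosis genes RIPK3 had 0 reads in all 4 libraries, and MLKL, the executor of that route, fell by 1.26 from a low level of 3.12 CPM.

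Of 8 genes of transcription factors described as acting on receptor genes 3 rose, 2 fell and 3 did not pass. Over all genes tested 63.8% passed. FOXO3 (log2 change -1.19) fell, while NFKB1 (0.36), RELA (0.25) and YY1 (0.21) rose. DDIT3, which encodes the stress-induced factor CHOP, had 588 and 674 exon reads in the DMSO libraries, 153 in wogonin 3 and 258 in wogonin 4, and fell by 1.46 (adjusted p = 0.0047 by edgeR). Transcript levels do not measure the activity of these factors.

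**Figure D5:**
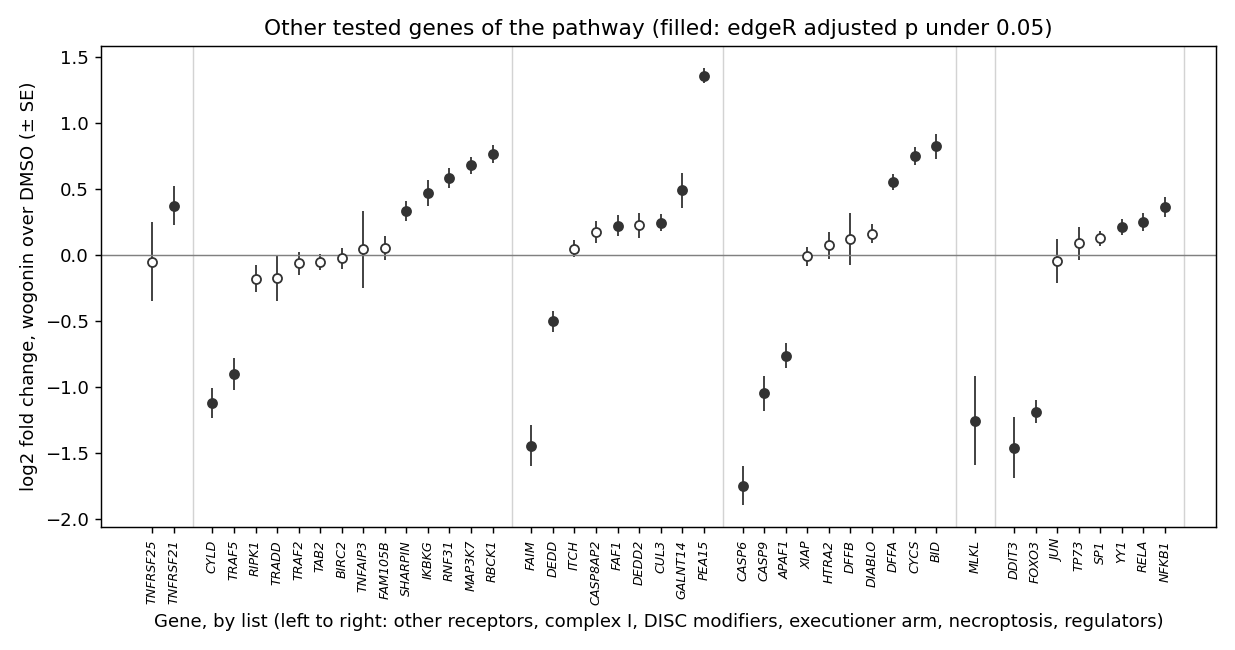
Log2 fold change (wogonin over DMSO, with its standard error) of the 44 other tested pathway genes, sorted within 6 lists. Filled points passed at an adjusted p under 0.05. PEA15 (1.36) is the highest and CASP6 (-1.75) the lowest.

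For the 3 members with a change of at least 1 log2 unit, the genes with the nearest profiles were found by the distance between log2 CPM profiles over the 4 libraries, each centred on its mean. For TNFRSF10D these were RP5-864K19.4, FAM184B and ALDH8A1, all with 0 reads in DMSO and about 1 CPM in wogonin. Their distance to TNFRSF10D rests on the small count added to those zeros, and their fitted log2 changes (6.56, 6.56 and 6.62) are not bounds and lie far from its 2.77, so they are not shown to be like it. For CASP10 they were C1orf115, C10orf91 and HACL1 (distances 0.0543, 0.0812 and 0.106). For TNFRSF10C they were RP11-611D20.2, RP11-23J9.4 and MRPS17_1, which share its lower level in wogonin 3 than in wogonin 4. With 4 libraries in 2 groups such a distance is a description of these libraries.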

How the data were processed

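Exon, intron and exon-junction read counts per gene were used as the authors deposited them, 1 table per library; per the file headers each has a total and a unique column, the latter for reads with 1 match. TPM values, which the authors deposited beside RPKM, were used for levels per exon length; the RPKM values and the deposited fraction columns (unique over total, intron over gene reads) were not used for any test. The submitters' processing notes name GRCh37 and hg19; for the aligner, counter, annotation release and strand, nothing is given in the sources used here.

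Total exon counts of 13449 genes that passed filterByExpr were fitted with edgeR 4.0.16 in R 4.3.3 (TMM factors, robust quasi-likelihood fit, 2-sided, Benjamini-Hochberg over all genes, threshold 0.05). SE is that of the log2 fold change, taken from the test statistic. The ratio of 2 kinds of read was fitted with library, read kind and read kind by treatment as terms, each kind scaled by TMM, so relative to the other genes, for genes with at least 10 reads of each kind. Alternatives used DESeq2 1.42.0, limma 3.58.1 (voom), other scalings, filters and read columns, and each library left out. The gene fit, tested on simulated counts of 13323 genes, called 93% of genes changed by 1 log2 unit and 67% of those changed by 0.5. The ratio fit called 81.5% of those changed by 1 (11967 genes). Each simulation changed only 200 genes, all with more reads than TNFRSF10C or CASP10, and gave every gene the same spread. Far more genes passed in the real libraries, so these rates need not hold for them. The members and gene lists were chosen with earlier results of these data known. Some genes of the lists are not reported here and are left out of the list counts. All 10 members are named; of the other lists, all tested genes or up to 5 with the smallest adjusted p, all ligands, tested neighbours within 200 kb, and the 3 nearest profiles of members with a change of at least 1. The libraries held 11005921 to 11839562 exon reads, and 3 counts were worth 0.253 to 0.273 CPM without TMM scaling.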

Additional observations from a re-analysis of the deposited data

How the results depend on the processing

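TNFRSF10D, FAS, CFLAR and CASP10 kept their direction and their side of the threshold in all alternatives that could be run, CASP10 having too few junction reads for a fit. With library totals alone TNFRSF10B was at -0.0098 and TNFRSF1A at -0.021, and with upper-quartile scaling at -0.0094 and -0.021, against a median of all genes of -0.09 in both; TNFRSF1A was at -0.0024 in total gene reads. FADD lost its call with DESeq2 (0.31), in unique exon reads (0.24), total gene reads (0.22), unique gene reads (0.14) and junction reads (0.11), and TNFRSF10C with DESeq2 (-1.43). CASP8 was at 0.0043 in junction reads, an alternative chosen after seeing the data, in which 1 member was lower. Leaving out each library in turn gave -2.49 to -0.80 for TNFRSF10C, -0.36 to -0.21 for CASP8 and -0.017 to 0.16 for TNFRSF1A (log2), and 2 to 4 members lower. It gave log2 changes of -1.33 to -0.99 for the CFLAR junction ratio, 0.37 to 0.61 for that of CASP8, -2.83 to -1.39 for the TNFRSF10D intron ratio and -1.14 to -0.86 for that of CASP8. With the kinds of read not scaled to each other, a setting also chosen after seeing the data, the intron ratios of TNFRSF10D and CASP8 were at -1.66 and -0.56 and lost their calls, while the junction ratios of CFLAR and CASP8 kept theirs.

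The decoy share was 7.63% and 6.88% in DMSO 1 and 2 in total gene reads; per exon length it was 9.60%, 8.18%, 33.3% and 32.6% in DMSO 1, DMSO 2, wogonin 3 and wogonin 4. In that order the CFLAR to CASP8 ratio was 0.408, 0.410, 0.331 and 0.321 in unique exon reads and 0.139, 0.137, 0.114 and 0.112 in TPM, and 0.419, 0.426 and 0.400 in the first 3 in total gene reads. The cause of these changes was not tested, except that the length scale divides CFLAR by its longer exons. No paired analysis was possible because the groups share no replicate number. Depth limits TNFRSF10A, TNFRSF10C, CASP10 and the ligands most.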
